A study of Mus musculus with 6 samples.

Results

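Expression of 10 genes of the WNT pathway was compared between tumor cells with and without knockdown of HIF-1α. They were chosen by name and matched to the gene names of the deposited table: Ctnnb1, Apc, Axin1, Axin2, Lef1, Tcf7l2, Nkd1, Rnf43, Znrf3 and Lgr4. All 10 were found among the 22880 genes of the table, and 8 of the 10 passed the filter on low counts that left 12014 genes for testing. Nkd1 and Rnf43 did not pass, and their values are given without a test.

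The study asked what the hypoxia-inducible transcription factor HIF-1α does in colorectal tumor cells growing in the gut wall. RNA was sequenced from MC-38GFP cells, a murine colon adenocarcinoma line carrying green fluorescent protein, after growth as tumors in the cecum wall of C57BL/6J mice. Tumors were dissociated, and live cells positive for GFP and negative for CD45 (leukocytes) and CD31 (endothelium) were sorted. The 3 Mock libraries and the 3 HIF-1α-KD libraries were all labelled as transduced with the lentiviral vector pLKO.1-puro, without prior passaging in vivo. The labels give a mock knockdown for the first group and a knockdown of HIF-1 alpha for the second. The host animals kept their own HIF-1α, and whether each cell line was 1 clone is not given in the sources used here. Nor do the labels say whether a library came from 1 tumor or from separate animals, so the p-values measure only the spread between these samples, which may be technical. Libraries of 1 group differed by more than counting error, with a chi-square over genes of 30.6 to 97.6 per degree of freedom, which does not separate preparation from tumor or animal.

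In the canonical WNT pathway, WNT ligands bind Frizzled receptors and LRP co-receptors at the cell surface. Without ligand, a cytosolic complex built on the scaffolds APC and AXIN marks β-catenin, the product of Ctnnb1, for degradation. With ligand, β-catenin accumulates and acts in the nucleus with DNA-binding factors of the TCF/LEF family, and among the genes it switches on are inhibitors of the pathway itself, such as Axin2, Nkd1, Rnf43 and Znrf3. The pathway maintains the stem cells of the intestinal crypt, and its genes are among the most often mutated in colorectal cancer.

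Reads assigned to genes numbered between 19845852 and 30809139 per library. Normalized counts of the targeted gene Hif1a stood at 6914, 5424 and 4945 for Mock and at 697.3, 3142 and 1928 for HIF-1α-KD. The groups did not overlap, and the log2 fold change was -1.82 (SE 0.46, adjusted p = 0.219, limma), so the direction matched the labels while the depth of the knockdown varied between libraries. Markers of intestinal epithelium were scarce: Epcam, a surface protein of epithelia, had between 2.31 and 37.5 normalized counts, and Cdx2, the transcription factor that defines intestinal identity, had at most 2.42. The 10 epithelial markers summed to between 69.9 and 140 in 5 libraries and to 600 in Mock replicate 3. None of the 10 was at 0 in all libraries. The 8 leukocyte markers summed to between 2401 and 3869 in 5 libraries and to 12260 in HIF-1α-KD replicate 3. The 6 endothelial markers summed to between 511 and 624 in Mock and between 322 and 484 in HIF-1α-KD, and without Cdh5, the gene with most of these counts, to 52 to 89 and 61 to 125 with overlap. Of the 3 endothelial markers tested, Cdh5 had a log2 fold change of -0.84 and Pecam1 and Tek values of 0.26 and 1.26. The 7 fibroblast and mural markers summed to between 41143 and 97029 in Mock and between 113900 and 223850 in HIF-1α-KD, and without Col1a1 to 31295 to 49959 and 23247 to 37649 with overlap. Col1a1, the type I collagen gene that fibroblasts transcribe strongly, had 9848, 62850 and 47070 normalized counts for Mock and 186200, 107200 and 90650 for HIF-1α-KD. The other 6 genes of that list had log2 fold changes of -0.38 for Dcn, -0.16 for Lum, 0.03 for Pdgfra, 0.33 for Acta2, 0.59 for Pdgfrb and 1.15 for Rgs5. In such sorted bulk samples, fewer cells of a type and less RNA per cell cannot be told apart, and the part of these marker differences in the results that follow was not tested.

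No WNT gene among the 8 tested passed an adjusted p of 0.05 in limma, where 0.391% of all tested genes passed, 0.00832% higher and 0.383% lower in HIF-1α-KD. Apc, Znrf3 and Lef1 had an unadjusted p under 0.05, all with the higher mean in HIF-1α-KD, against 7.04% of all tested genes in that direction. Apc and Lef1 also passed the looser criterion of an unadjusted p under 0.05 with a fold of at least 1.5 upward, met by 4.02% of all tested genes (3.46% met it downward). The 3 values of each group did not overlap for Apc and Znrf3, both higher in HIF-1α-KD, as for 10.4% of all tested genes. Log2 fold changes were above 0 for 7 of the 8 genes and had a median of 0.39, beside a median of 0.02 over all tested genes. edgeR's quasi-likelihood test on the recovered reads called 0 of the 8 at an adjusted p of 0.05, and DESeq2 called Apc alone, where it called 2.36% of all tested genes, with 0.799% of all tested genes in the upward direction.

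**Figure D1:**
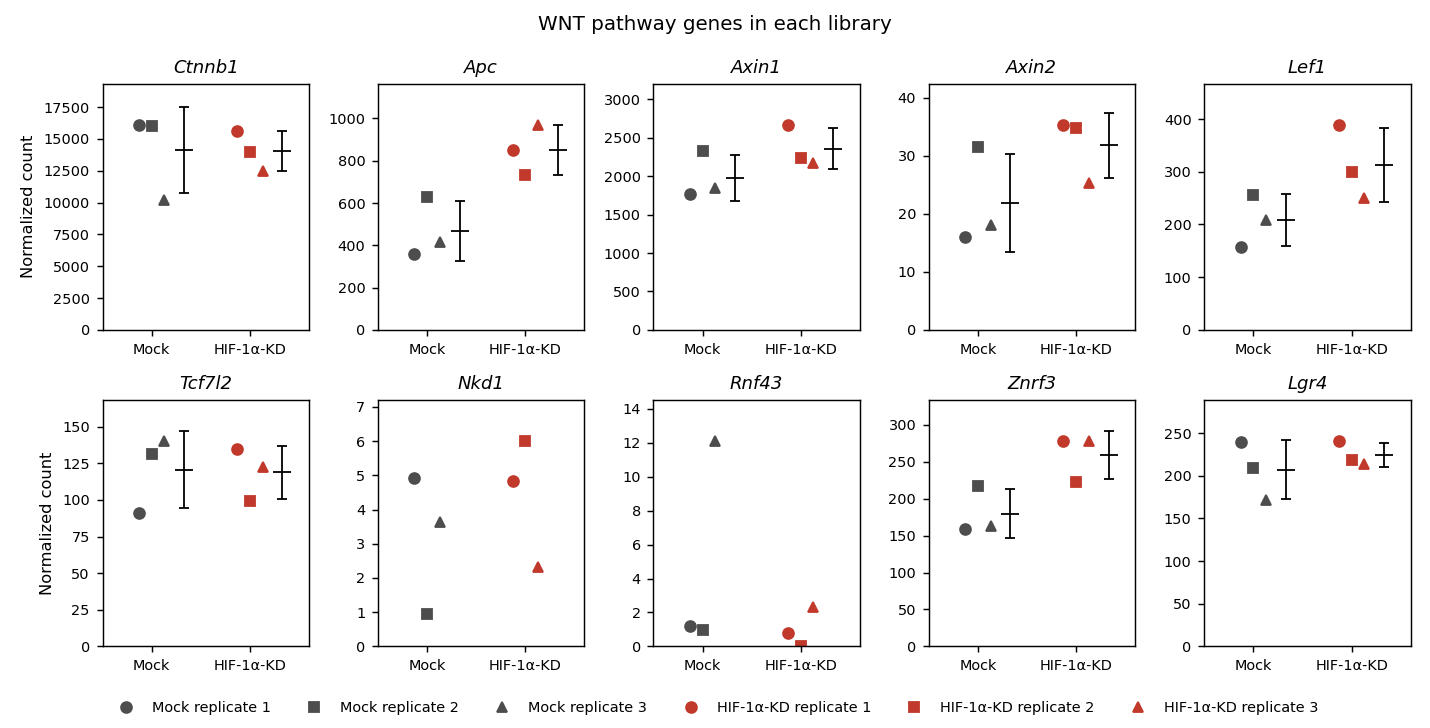
Normalized counts (vertical axes, linear from 0, 1 panel per gene) of the 10 WNT genes in the 3 Mock libraries (gray) and the 3 HIF-1α-KD libraries (red), with marker shapes for replicates 1, 2 and 3 and, for the 8 tested genes, the group mean ± SD in black. The groups are apart for Apc and Znrf3, and the Rnf43 panel shows 1 Mock library at 12.1 with every other library at or under 2.31.

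The first genes considered were those of β-catenin and of its destruction complex. Ctnnb1 encodes β-catenin, which links cadherins to the cytoskeleton and carries the WNT signal to the nucleus. Its normalized counts were 16120, 16040 and 10190 for Mock and 15650, 14010 and 12500 for HIF-1α-KD. The groups overlapped fully, and Mock replicate 3 was the lowest of the 6 libraries. limma gave a log2 fold change of 0.02 (SE 0.20, 95% confidence interval -0.44 to 0.48, adjusted p = 0.977), and its sign was negative without Mock replicate 3, at -0.20. The gene lies on the plus strand at chr9:120929216-120960507 (GRCm38), and 759 of its exonic bases are shared with Ulk4 on the opposite strand, a gene that is also in the table.

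Apc, at chr18:34220924-34322552 on the plus strand, encodes the tumor suppressor that holds the destruction complex together and is the gene most often inactivated early in colorectal cancer. Normalized counts were 359.5, 626.8 and 416.7 for Mock and 851.8, 732.6 and 970.3 for HIF-1α-KD. Every HIF-1α-KD library was above every Mock library, with Mock replicate 2 the closest from below. The means were 468 ± 141 (SD, n = 3) and 852 ± 119 (SD, n = 3). The log2 fold change was 0.89 (SE 0.23, 95% confidence interval 0.37 to 1.42), a fold of 1.86, with an unadjusted p of 0.00416 and an adjusted p of 0.231 in limma. DESeq2 gave an adjusted p of 0.0393 and edgeR one of 0.247, and over the 15 alternatives the adjusted p ranged from 0.0393 to 0.499. With 1 library left out at a time, the log2 fold change stayed between 0.73 and 1.13. The unadjusted p was under 0.05 in each of the 15 alternatives, the highest being 0.0473 without Mock replicate 3 and HIF-1α-KD replicate 3, the libraries rich in epithelial and leukocyte markers.

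Axin1 encodes the scaffold that is made constitutively and sets how much destruction complex can form. Its normalized counts were 1774, 2327 and 1845 for Mock and 2671, 2243 and 2167 for HIF-1α-KD. Mock replicate 2 reached above 2 of the HIF-1α-KD libraries, so the groups overlapped. Its difference between the groups was a log2 fold change of 0.26 (SE 0.16, 95% confidence interval -0.11 to 0.62, adjusted p = 0.548, limma). The gene lies at chr17:26138688-26195811 on the plus strand.

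To compare the messengers of the complex with that of its substrate within each library, ratios of normalized counts were taken, chosen after the values had been seen and given without a test. The ratio of Apc to Ctnnb1 was 0.0223, 0.0391 and 0.0409 for Mock and 0.0544, 0.0523 and 0.0776 for HIF-1α-KD. The ratio of Apc to Axin1 was 0.203, 0.269 and 0.226 for Mock and 0.319, 0.327 and 0.448 for HIF-1α-KD. Both ratios were higher in every HIF-1α-KD library than in any Mock library, with differences of 0.88 and 0.64 between the mean log2 ratios of the groups. The ratio of Axin1 to Ctnnb1 overlapped between the groups, with a difference of 0.24 on that scale. Both ratios without overlap have Apc as numerator, whose own log2 fold change was 0.89 in limma, so they are not separate from its difference. An exact permutation test of 3 against 3 libraries cannot give a p below 0.1.

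**Figure D2:**
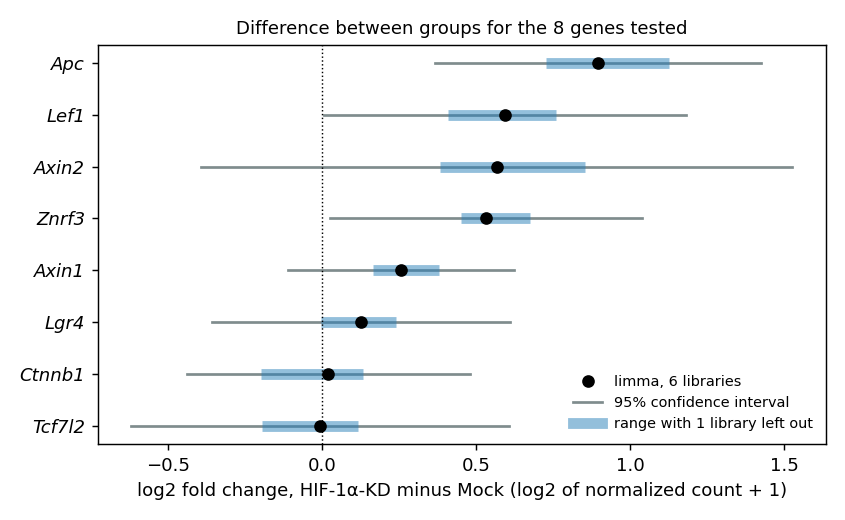
log2 fold change of HIF-1α-KD minus Mock (horizontal axis, log2 of normalized count + 1) for the 8 tested WNT genes, with the limma estimate (black points), its 95% confidence interval (gray lines) and the range of estimates with 1 library left out (blue bars). The intervals of Apc, Lef1 and Znrf3 lie above 0, that of Lef1 beginning at 0.01, and those of the other 5 genes span 0.

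The DNA-binding partners of β-catenin followed. Lef1, at chr3:131110471-131224356 on the plus strand, encodes a factor of this family that is itself a WNT target in many tissues. Its normalized counts were 157.6, 256.5 and 209.0 for Mock and 389.3, 298.6 and 250.7 for HIF-1α-KD. Mock replicate 2 lay just above HIF-1α-KD replicate 3, so the groups overlapped by that pair alone. The means were 208 ± 49.5 and 313 ± 70.4 (SD, n = 3 each). limma gave a log2 fold change of 0.59 (SE 0.26, 95% confidence interval 0.01 to 1.18), with an unadjusted p of 0.0481 and an adjusted p of 0.390. The unadjusted p was above 0.05 without Mock replicate 1, Mock replicate 3, HIF-1α-KD replicate 1 or HIF-1α-KD replicate 2, and the log2 fold change then lay as low as 0.41. It was also above 0.05 under edgeR, TMM scaling, no filter and the replicate block and without the marker-rich libraries, in 9 of the 15 alternatives in all, over which it ran from 0.0296 to 0.151. An antisense gene, Gm43352, shares 1208 exonic bases with Lef1, and whether the counting used the strand is not given in the sources used here, so reads of the 2 genes may not have been told apart.

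Tcf7l2 encodes TCF4, the main partner of β-catenin in normal intestinal epithelium. Its normalized counts were 91.1, 131.1 and 140.1 for Mock and 135.1, 99.52 and 122.4 for HIF-1α-KD. The groups overlapped, with Mock replicate 1 the lowest and Mock replicate 3 the highest library. The log2 fold change was -0.01 (SE 0.27, 95% confidence interval -0.62 to 0.61, adjusted p = 0.993, limma), and its sign was positive in 5 of the 15 alternatives. The gene lies at chr19:55741820-55933654 on the plus strand.

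The family has 2 further members, Tcf7, which encodes TCF1, and Tcf7l1, which encodes TCF3, a factor known mainly as a repressor. Normalized counts of Tcf7 were 1093, 1154 and 956.7 for Mock and 1745, 1401 and 1470 for HIF-1α-KD. The groups did not overlap, and the log2 fold change was 0.52 (SE 0.16, adjusted p = 0.271, limma). Normalized counts of Tcf7l1 were 1003, 1555 and 788.8 for Mock and 911.3, 898.1 and 981.8 for HIF-1α-KD, with overlap.

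Levels of the 4 factors were set side by side on the deposited FPKM scale, which divides by gene length. Tcf7 made up 34.7% ± 5.0 (SD, n = 3) of their summed FPKM in Mock and 45.0% ± 2.22 in HIF-1α-KD. Tcf7l1 made up 55.7% ± 6.31 and 43.7% ± 3.57, Lef1 made up 5.79% ± 1.25 and 7.90% ± 1.39, and Tcf7l2 made up 3.83% ± 1.30 and 3.35% ± 0.30. Tcf7l1 was thus the most abundant of the 4 in Mock and about level with Tcf7 in HIF-1α-KD on this scale. The lengths in the table were shorter than the merged exons of the annotation, at 1320 against 3924 bases for Tcf7l1. With merged exons, Tcf7 led in both groups, at 56.5% in Mock and 67.1% in HIF-1α-KD, so the order of Tcf7 and Tcf7l1 in Mock depended on the length used. The share of Tcf7 was higher in every HIF-1α-KD library than in any Mock library on both scales.

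**Figure D3:**
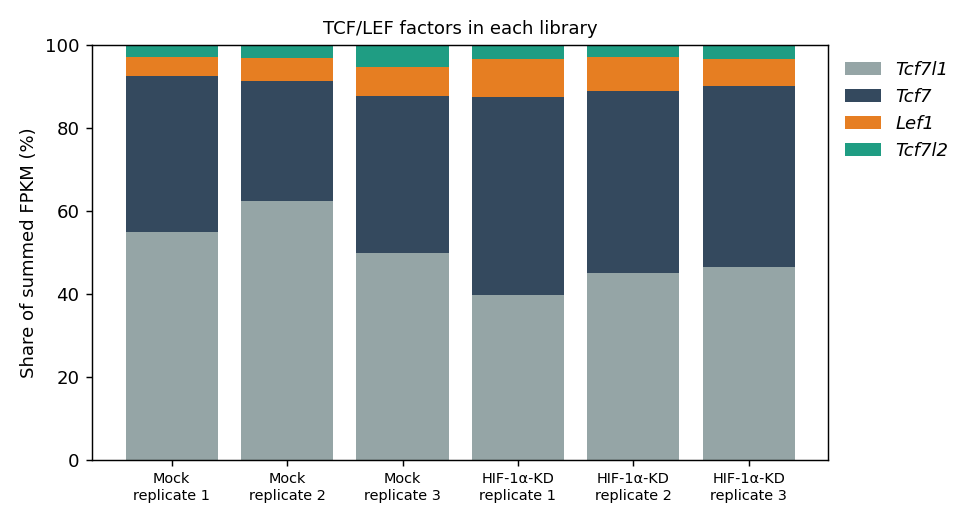
Share of the summed FPKM of the 4 TCF/LEF factors taken by each factor (vertical axis, percent from 0 to 100) in each of the 6 libraries. The Tcf7 segment covers 28.9% to 37.8% in the Mock libraries and 43.6% to 47.6% in the HIF-1α-KD libraries, and Lef1 and Tcf7l2 are small segments in all 6.

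The upstream sequence of the genes was taken from RefSeq on GRCm38.p6, in windows of 250 bases before each start site. It held 13 start sites for 7 of the 10 genes, and sequence is shown for the 3 of these with the smallest unadjusted p. Apc, Axin1 and Znrf3 had no entry and were not searched, which leaves out both genes whose groups did not overlap. Windows were searched on both strands for the TCF/LEF letters CTTTGAA and CTTTGAT and CTTTGTA and CTTTGTT and for the hypoxia response core letters ACGTG and GCGTG. No motif of one set is contained in one of the other. Of 32817 promoter windows in the table, 14.8% held a TCF/LEF match and 38.6% a hypoxia response match. Those shown belong to Lef1 at chr3:131110047-131110296, to Axin2 at chr11:108920099-108920348 and to Lgr4 at chr2:109917397-109917646, each on the plus strand, with matches in capitals.
Lef1: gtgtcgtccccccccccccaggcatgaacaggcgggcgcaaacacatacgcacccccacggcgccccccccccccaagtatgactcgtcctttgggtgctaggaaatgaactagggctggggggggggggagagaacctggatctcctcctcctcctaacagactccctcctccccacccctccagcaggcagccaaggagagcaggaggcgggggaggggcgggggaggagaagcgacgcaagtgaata
Axin2: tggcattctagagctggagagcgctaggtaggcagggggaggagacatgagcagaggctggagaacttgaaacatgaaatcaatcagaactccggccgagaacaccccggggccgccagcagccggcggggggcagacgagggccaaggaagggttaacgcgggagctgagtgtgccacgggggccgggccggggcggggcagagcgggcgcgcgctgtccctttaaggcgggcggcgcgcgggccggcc
Lgr4: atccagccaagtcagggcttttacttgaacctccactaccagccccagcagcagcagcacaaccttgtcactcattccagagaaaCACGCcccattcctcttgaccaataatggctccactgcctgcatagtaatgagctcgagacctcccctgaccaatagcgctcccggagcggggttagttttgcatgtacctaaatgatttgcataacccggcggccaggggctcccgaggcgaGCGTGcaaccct
The Lef1 window belongs to the first of its 4 start sites. The windows shown for Lef1 and Axin2 held neither kind of letters, and that of Lgr4 held GCGTG at 165 bases before the start on the minus strand and at 12 bases on the plus strand. Over all 13 windows, TCF/LEF letters were in 2, CTTTGTA at 147 bases before a later start of Lef1 on the minus strand and CTTTGTT at 14 bases before a later start of Tcf7l2. Hypoxia response letters were in 7 of the 13 windows, in 6 of the 7 genes: Lgr4, that same later start of Lef1, the first start of Tcf7l2, a pair of Ctnnb1 starts, Nkd1 and Rnf43. The windows of the Ctnnb1 pair overlap and hold the same GCGTG, so 1 site stands in both. These matches describe letters in short windows and show no binding.

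The feedback inhibitors were taken next, of which Axin2 and Znrf3 passed the filter on low counts. Axin2, at chr11:108920349-108950783 on the plus strand, encodes the inducible partner of AXIN1 and is widely used as a readout of canonical signaling. Few reads fell on it, with 13, 33 and 15 for Mock and 44, 29 and 22 for HIF-1α-KD, or 16.0, 31.58 and 18.12 against 35.39, 34.77 and 25.41 normalized counts. The 95% Poisson interval of the 13 reads, which covers counting error only, ran from 6.92 to 22.2. Mock replicate 2 lay within the HIF-1α-KD range. Its difference between the groups was a log2 fold change of 0.57 (SE 0.42, 95% confidence interval -0.39 to 1.53, adjusted p = 0.615, limma), and no difference was detected. The antisense gene Gm11670 shares 209 exonic bases with it.

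Znrf3, on the minus strand at chr11:5276324-5444847, encodes a membrane ubiquitin ligase that removes Frizzled receptors from the cell surface. Normalized counts were 158.8, 217.2 and 163.1 for Mock and 277.5, 221.8 and 277.2 for HIF-1α-KD. The groups did not overlap, although Mock replicate 2 and HIF-1α-KD replicate 2 were close. The means were 180 ± 32.5 and 259 ± 32.1 (SD, n = 3 each). limma gave a log2 fold change of 0.53 (SE 0.22, 95% confidence interval 0.02 to 1.04), with an unadjusted p of 0.0418 and an adjusted p of 0.382. The unadjusted p was above 0.05 without Mock replicate 1, Mock replicate 3, HIF-1α-KD replicate 1 or HIF-1α-KD replicate 3, with log2 fold changes down to 0.45. It was also above 0.05 under edgeR, DESeq2, no filter and the replicate block and without the marker-rich libraries, in 9 of the 15 alternatives in all, over which it ran from 0.0256 to 0.218.

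Rnf43, at chr11:87662722-87735539 on the plus strand, encodes the paralog of ZNRF3 with the same role at the receptor. It received 1, 1 and 10 reads for Mock and 1, 0 and 2 for HIF-1α-KD. Mock replicate 3 held most of the reads, at 12.1 normalized counts, and the same library held the high sum of epithelial markers given above. The 0 reads of HIF-1α-KD replicate 2 allow up to 3.60 normalized counts, the value of 3 reads there. Nkd1, at chr8:88521354-88594884 on the plus strand, encodes an inhibitor that acts on Dishevelled. It received 4, 1 and 3 reads for Mock and 6, 5 and 2 for HIF-1α-KD, or between 0.957 and 5.995 normalized counts with overlap, and neither gene was tested.

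**Figure D4:**
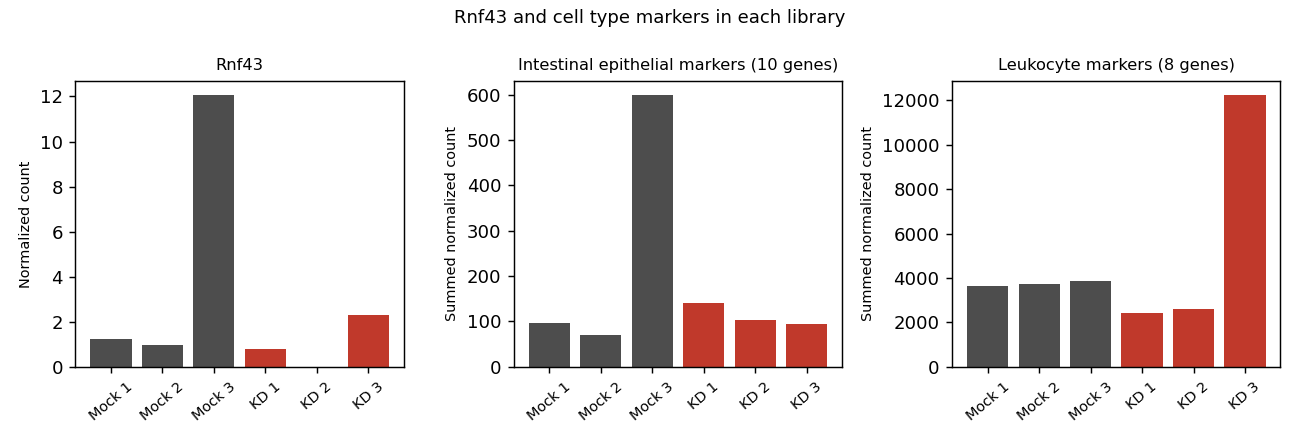
Normalized counts of Rnf43 and summed normalized counts of the 10 intestinal epithelial and the 8 leukocyte markers (vertical axes from 0) in each library, Mock in gray and HIF-1α-KD in red. Rnf43 and the epithelial markers are high in Mock replicate 3, and the leukocyte markers in HIF-1α-KD replicate 3.

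Lgr4, at chr2:109917647-110014257 on the plus strand, encodes a receptor for R-spondins, secreted proteins that hold back ZNRF3 and RNF43. Its normalized counts were 240.1, 209.6 and 171.5 for Mock and 240.5, 218.2 and 213.7 for HIF-1α-KD. The groups overlapped, with means of 207 ± 34.4 and 224 ± 14.4 (SD, n = 3 each). The log2 fold change was 0.13 (SE 0.21, 95% confidence interval -0.36 to 0.61, adjusted p = 0.837, limma). Its relative Lgr5, the crypt stem cell marker, had between 0 and 16.2 normalized counts.

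The order of the libraries was then compared between the tested genes. Mock replicate 1 was the lowest of the 6 libraries for 6 of the 8 tested genes, as it was for 27.1% of all tested genes. HIF-1α-KD replicate 1, the library with the fewest Hif1a counts, was the highest for 5 of the 8, as it was for 23.2% of all tested genes. Among the Mock libraries, replicate 2 was the highest for 5 of the 8, as for 31.3% of all tested genes. Mock replicate 1 also had the lowest and HIF-1α-KD replicate 1 the highest Col1a1 count, at 9848 and 186200. The sum of fibroblast and mural markers had the same extremes, at 41143 and 223850, through Col1a1. Without that gene, the sum was lowest in HIF-1α-KD replicate 3, at 23247, and highest in Mock replicate 3, at 49959. The part of Col1a1 in the order was not tested. Ctnnb1 and Lgr4 were instead lowest in Mock replicate 3. Apc was highest in HIF-1α-KD replicate 3, Ctnnb1 in Mock replicate 1 and Tcf7l2 in Mock replicate 3.

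Levels of the 10 genes were ordered by mean FPKM over the 6 libraries. Ctnnb1 led at 383, followed by Axin1 at 43.2, Apc at 7.13, Lef1 at 4.36 and Lgr4 at 3.07. Tcf7l2 at 2.23 and Znrf3 at 2.19 came next, and Axin2 at 0.648 was the lowest of the tested genes. Rnf43 at 0.0514 and Nkd1 at 0.0363 closed the order. The 6 libraries of Ctnnb1, Axin1 and Axin2 overlapped those of no neighbour in the order, whereas the ranges of Apc, Lef1, Lgr4, Tcf7l2 and Znrf3 overlapped from each to the next, as did those of Rnf43 and Nkd1. With reads per kilobase of merged exons in place of the deposited lengths, Ctnnb1, Axin1 and Apc led in the same order, at 111, 23.2 and 1.68, but Lgr4 came before Lef1, Znrf3 before Tcf7l2, and Nkd1 before Rnf43. Levels of messenger alone were measured, and β-catenin is regulated mainly as a protein.

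The other genes of the pathway were read from 7 lists of ligands, receptors, inhibitors, cytosolic and nuclear components, targets and cadherin partners, with 112 genes in all, of which 67 were tested. In limma, 0 of the 67 passed an adjusted p of 0.05, as in edgeR and DESeq2. An unadjusted p under 0.05 was reached by 9 genes in the upward direction and by 2 in the downward direction, for which all tested genes gave 7.04% and 5.69%. With 1 library left out, between 6 and 11 genes reached it, and 5 did without the 2 marker-rich libraries. Of the genes that reached it with all libraries, only Apcdd1 stayed under 0.05 in each of the 15 alternatives. Without the marker-rich libraries, the unadjusted p in limma was 0.245 for Fzd4 and 0.172 for Bcl9. The values did not overlap for 11 genes higher in HIF-1α-KD and 3 lower, against 10.4% and 8.75% of all tested genes. The median log2 fold change was 0.09 over the 67 genes.

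Among ligands and their secretion, 6 of 21 genes were tested, 0 with an unadjusted p under 0.05 upward and 1 downward, and 6 of the 21 had no read in any library. The one was Porcn, the acyltransferase that WNT proteins need for secretion, at 117.0, 77.52 and 93.01 normalized counts for Mock and 52.28, 58.75 and 60.07 for HIF-1α-KD. Its groups did not overlap, with a log2 fold change of -0.72 (SE 0.28, adjusted p = 0.358, limma). Wnt5a, a ligand of the β-catenin-independent branch, had the highest counts of the ligands named, and its log2 fold change was -0.47 (adjusted p = 0.469, limma). Wnt6 had 54.17, 77.52 and 57.98 normalized counts for Mock and 204.3, 79.14 and 93.56 for HIF-1α-KD, with a log2 fold change of 0.87 (adjusted p = 0.397, limma).

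Of 22 receptor and R-spondin genes, 13 were tested, 2 with an unadjusted p under 0.05 upward and 0 downward, with a median log2 fold change of 0.24. Frizzled gene Fzd1 had 64.01, 49.76 and 66.44 normalized counts for Mock and 112.6, 95.93 and 99.34 for HIF-1α-KD. Its log2 fold change was 0.77 (adjusted p = 0.319, limma), and that of Fzd4 was 0.75 (adjusted p = 0.390, limma), both without overlap. Fzd9 overlapped, at a log2 fold change of 1.07 (adjusted p = 0.429, limma). The co-receptor genes Lrp5 and Lrp6 were well measured and overlapped between the groups, at log2 fold changes of -0.07 and 0.26.

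Of 16 extracellular inhibitors, only 3 were tested, and 6 had no read in any library, Dkk1 among them. Apcdd1, a membrane inhibitor of WNT binding that is also a target of the pathway, had 18.47, 35.41 and 28.99 normalized counts for Mock and 152.8, 64.75 and 58.91 for HIF-1α-KD. The groups did not overlap, and the log2 fold change of 1.61 (SE 0.45) came with an adjusted p of 0.253 in limma, the lowest of the listed genes. Dkk2, which blocks the LRP co-receptors, had 274.5, 312.0 and 404.7 normalized counts for Mock and 1262, 420.9 and 470.1 for HIF-1α-KD. The third tested gene, Kremen1, which encodes a receptor for DKK proteins, had a log2 fold change of -0.35 with overlap. In Apcdd1 and Dkk2, HIF-1α-KD replicate 1 stood far above the other 2 libraries of its group.

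Of 16 cytosolic components, 14 were tested, with 1 upward and 0 downward at an unadjusted p under 0.05 and a median log2 fold change of 0.03. That gene was Csnk1e, a casein kinase of the pathway, with 1101, 1341 and 1306 normalized counts for Mock and 1770, 1442 and 1781 for HIF-1α-KD. Its log2 fold change was 0.41 (adjusted p = 0.345, limma). Amer1, which encodes a membrane anchor of APC, had a log2 fold change of 0.50 and Dvl1, a Dishevelled gene, one of 0.23. Gsk3b, the kinase of the destruction complex, had a log2 fold change of -0.10 with overlap. Of 18 nuclear cofactors, 17 were tested, with 3 upward and 0 downward, which were Tcf7, Bcl9 and Tle1, at log2 fold changes of 0.52, 0.79 and 0.46. Their adjusted p in limma was 0.271, 0.329 and 0.346, and the groups overlapped for Bcl9. Bcl9 encodes a co-activator bound to β-catenin and Tle1 a co-repressor bound to TCF factors.

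Of 17 target genes, 9 were tested, with 3 upward and 1 downward at an unadjusted p under 0.05 and a median log2 fold change of 0.25. Ephb3, a receptor that positions cells along the crypt, had 121.9, 239.2 and 149.8 normalized counts for Mock and 330.6, 241.0 and 269.1 for HIF-1α-KD. Its log2 fold change was 0.76 (adjusted p = 0.339, limma) without overlap, and the other genes upward were Apcdd1 and Tcf7, which are also in the lists above. The gene downward was Sox9, which encodes a transcription factor of crypt cells, at a log2 fold change of -0.43. Ccnd1, which encodes cyclin D1, had a log2 fold change of 0.25 and Myc one of -0.40, both with overlap. The other 8 targets did not pass the filter on low counts, and of these Lgr5 had at most 16.2 normalized counts, Ascl2 at most 1.16 and Notum at most 1.61, while Dkk1 and Sp5 had no read in any library. Of 8 cadherin partners of β-catenin, 7 were tested, with 0 at an unadjusted p under 0.05 in either direction. Cdh2, the N-cadherin gene, had 1019, 1079 and 895.1 normalized counts for Mock and 782.6, 877.7 and 742.7 for HIF-1α-KD, while Cdh1, the E-cadherin gene, had between 26.4 and 94.2. Cdh11 and Jup, which encodes γ-catenin, had log2 fold changes of 0.94 and 1.00 with adjusted p of 0.436 and 0.451 in limma. Normalized counts of Jup were 359.5, 661.3 and 482.0 for Mock and 2267, 851.3 and 473.6 for HIF-1α-KD, and without HIF-1α-KD replicate 1 its log2 fold change was 0.39.

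**Figure D5:**
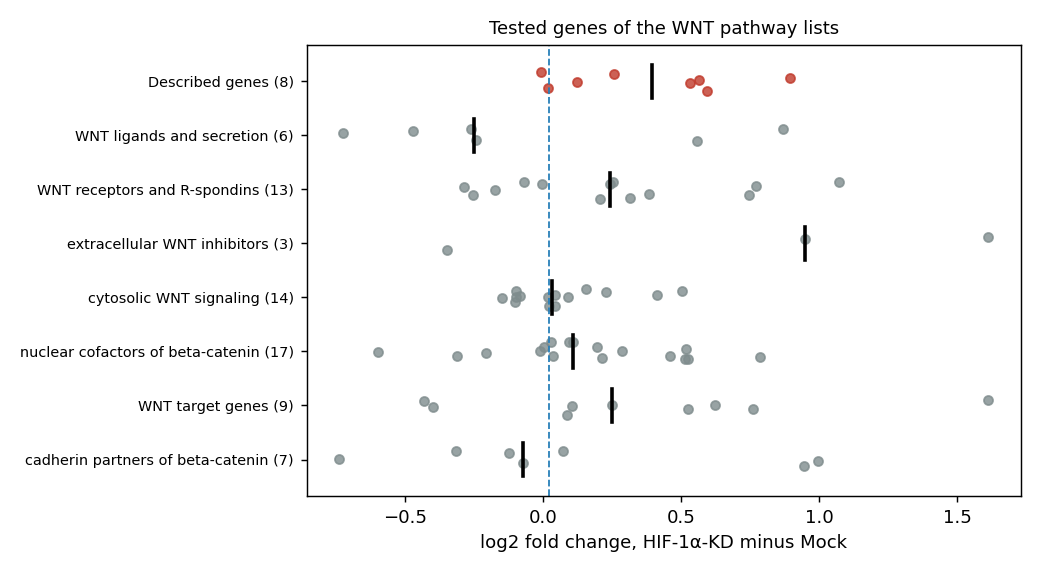
log2 fold change of HIF-1α-KD minus Mock (horizontal axis) for every tested gene of the described WNT genes (red) and of the 7 pathway lists (gray, number tested in parentheses), with list medians as black bars and the median of all 12014 tested genes as a dashed blue line. The described genes have a median of 0.39, and the lists range from -0.25 for ligands and secretion to 0.95 for the 3 tested extracellular inhibitors.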

How the data were processed

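Sorted tumor cells from 3 Mock and 3 HIF-1α-KD samples were sequenced with poly-A selected, stranded TruSeq libraries. According to the methods and labels, the authors aligned reads with STAR and counted them with featureCounts; the labels name GRCm38 and edgeR, the methods DESeq2 and a human build name, and GENCODE annotation of GRCm38 was used here. The deposited table holds, per gene and library, a normalized count (the authors' signal, counts divided by size factors) and an FPKM value. Its gene length and GC fraction columns are deposited annotation, of which only length was used. The authors' own columns of log2 ratio, p-value and false discovery rate were not used. Whole reads were recovered from the normalized counts: 100% of values up to 300 reads were whole within 0.1 reads.

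The test was limma 3.58.1 with a trend, two-sided, on log2(normalized count + 1), for genes passing edgeR's filter with a minimum count of 10, and p-values were adjusted by Benjamini-Hochberg over 12014 genes. A fold change on this scale understates the change of low genes. edgeR 4.0.16 and DESeq2 1.42.0 on the recovered reads, other scalings, pseudocounts and filters, a replicate block and leaving out each library were the alternatives. The scripts were tested on simulated data. The genes and pathway lists were chosen with earlier results of these data known. All 10 genes are named, and of each list the 3 with the smallest unadjusted p; other list genes (Lrp5, Lrp6, Gsk3b, Ccnd1, Myc, Sox9, Tcf7l1, Cdh1, Lgr5, Dkk1, Ascl2, Notum, Sp5) were added after their values were seen.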

Additional observations from a re-analysis of the deposited data

How the results depend on the processing

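Of 120 log2 fold changes of the 8 tested WNT genes over 15 alternatives, 107 kept their direction and side of an adjusted p of 0.05, 12 changed sign and 1 passed it, that of Apc under DESeq2. DESeq2 therefore called 1 of the 8 where limma called 0, and 283 genes in all where limma called 47. Ctnnb1 changed sign under edgeR (-0.028), DESeq2 (-0.019) and scaling by TMM (-0.0031), and without the libraries rich in epithelial and leukocyte markers (Mock replicate 3 and HIF-1α-KD replicate 3, left out together in a setting chosen after seeing the data), at -0.12. Tcf7l2 changed sign when scaled by library size (0.048) and in that same setting (0.085). With 1 library left out, Ctnnb1 ran from -0.20 to 0.13, Tcf7l2 from -0.20 to 0.11 and Lgr4 from -0.0032 to 0.24. Direction and side were kept by all 285 values of the 19 list genes named by the rule and by those of Hif1a. The side was that above an adjusted p of 0.05, so none of these genes was called under any setting. Of 6 list genes added after their values were seen (Lrp5, Lrp6, Gsk3b, Ccnd1, Myc, Sox9), 87 values kept both and 3 changed sign, Lrp5 without Mock replicate 2 (range -0.32 to 0.12 with 1 library left out) and Gsk3b without Mock replicate 1 or 2 (range -0.32 to 0.025).

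The number of all genes called ran from 0 to 38 with 1 library left out: 2 without Mock replicate 1, 11 without Mock replicate 2, 0 without Mock replicate 3, 38 without HIF-1α-KD replicate 1, 0 without HIF-1α-KD replicate 2 and 8 without HIF-1α-KD replicate 3. It was 0 without the 2 marker-rich libraries, with 1250 at an unadjusted p under 0.05. Under the replicate block it was 0, with 1324 at an unadjusted p under 0.05. Same-numbered samples had correlations of deviations of -0.139, -0.123 and 0.0228. These few values showed no shared effect of the number but cannot settle whether equal numbers mark paired samples. The looser criterion, met by 2 of the 8 genes, was met by 1 under edgeR, DESeq2, TMM, no filter, a pseudocount of 10, the replicate block and without the marker-rich libraries, by 3 with scaling by library size, and by 1 to 3 with 1 library left out. It was met by 1 without Mock replicate 1, Mock replicate 3 or HIF-1α-KD replicate 1 and by 3 without Mock replicate 2. Of the 67 list genes, 7 met it, 6 upward and 1 downward, against 4.02% and 3.46% of all tested genes. With 1 library left out, 3 to 10 list genes met it, the fewest without Mock replicate 1 or Mock replicate 3. The cause of these differences was not tested. Depth limits Nkd1 and Rnf43, with at most 10 reads in a library.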
